A study of Mus musculus with 2 samples.

Results

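The genes described are 40 cell cycle genes of the adult mouse heart, of 55536 genes with an identifier in the deposited gene table. They were chosen by symbol and matched to the gene identifiers, with all 40 found, 1 identifier each. By role they were 16 genes of mitosis and cytokinesis, 11 of DNA replication and nucleotide supply, 3 D-type cyclins, 6 genes in a group of cyclin-dependent kinases, E-type cyclins and E2f1, and 4 inhibitors. Total RNA was sequenced from the hearts of 2 female B6CASTF1/J mice, an F1 hybrid of C57BL/6J and CAST/EiJ parents, aged 2 months, with no treatment named. The labels number the hearts as separate biological replicates of 1 group, called animal 1 and animal 2 here, although both carry the same donor identifier. The input was 300 ng of RNA a library, depleted of ribosomal RNA and spiked with ERCC standards, synthetic transcripts of known amount. The labels do not say which chambers were sampled or what share of the cells was muscle.

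The cell cycle runs on kinases that are switched on by cyclins. In response to growth signals D-type cyclins activate Cdk4 and Cdk6, which phosphorylate the retinoblastoma protein and release E2F factors. E2F factors then drive E-type cyclins and replication genes, and the mitotic genes follow later under the DREAM, MuvB, B-Myb and FoxM1 regulators. Cardiomyocytes of the mouse mostly leave the cycle soon after birth, while endothelial cells, fibroblasts and blood-derived cells of the heart keep some capacity to divide.

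Each library held about the same number of reads, 41862417 assigned to genes in animal 1 and 41790009 in animal 2. A count of 0 allows up to 3 reads, 0.0717 and 0.0718 CPM of gene reads. The reads have no molecular identifiers, and this limit and all intervals below cover counting error only. The tissue label matched its markers: all 6 cardiomyocyte genes were above 1 TPM, the length-corrected transcript abundance, and summed to 25830 and 29946 TPM. Endothelial, fibroblast, mural and macrophage markers were present as well (all 6 of 6 above 1 TPM in each list). Of markers of cell types rich in dividing cells, thymocyte genes had 64 and 75 reads over 6 genes, most of them from Cd1d1 (52 and 69), with Rag2 and Dntt at 0. Neutrophil precursor genes had 7 and 12 reads with Elane and Camp at 0, T and B lymphocyte genes 136 and 155 reads, and the erythroid precursor factor Klf1 was at 0.

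Promoters are shown first because the role groups, whose levels follow, differed in the short motifs at their starts. The stretches below are the 120 bases before the RefSeq start of 7 genes (GRCm38.p6, the mm10 assembly). They were picked after the matches were seen, as 5 mitotic genes, a replication gene with the most E2F matches, and the highest of the 40 genes, Cdkn1a, which had no match. Capitals mark matches on either strand to 3 motifs. These are the cell cycle homology region, bound by the MuvB complex, as TTTGAA, the NF-Y box as CCAAT, and an E2F site as TTTCGCGC, TTTGGCGC, TTTCCCGC or TTTGCCGC. On the opposite strand the first 2 read TTCAAA and ATTGG.
Mki67 (chr7:135716380-135716499, minus strand): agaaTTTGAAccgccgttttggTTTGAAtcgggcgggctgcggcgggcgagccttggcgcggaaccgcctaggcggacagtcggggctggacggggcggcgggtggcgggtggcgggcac
Top2a (chr11:99024190-99024309, minus strand): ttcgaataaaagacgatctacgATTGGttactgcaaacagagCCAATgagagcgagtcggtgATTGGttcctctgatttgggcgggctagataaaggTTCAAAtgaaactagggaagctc
Ccnb2 (chr9:70421555-70421674, minus strand): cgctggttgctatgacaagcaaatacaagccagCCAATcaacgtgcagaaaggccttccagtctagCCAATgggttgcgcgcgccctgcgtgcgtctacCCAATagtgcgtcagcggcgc
Cdk1 (chr10:69352913-69353032, minus strand): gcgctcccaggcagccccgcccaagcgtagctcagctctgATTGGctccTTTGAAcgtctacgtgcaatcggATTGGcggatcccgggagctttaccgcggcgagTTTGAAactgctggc
Kif11 (chr19:37376262-37376381, plus strand): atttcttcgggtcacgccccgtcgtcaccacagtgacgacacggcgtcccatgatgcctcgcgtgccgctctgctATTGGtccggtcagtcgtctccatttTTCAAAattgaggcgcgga
Mcm6 (chr1:128359706-128359825, minus strand): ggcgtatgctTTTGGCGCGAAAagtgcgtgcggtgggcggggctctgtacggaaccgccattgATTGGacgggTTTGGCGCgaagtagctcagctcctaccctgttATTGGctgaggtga
Cdkn1a (chr17:29093649-29093768, plus strand): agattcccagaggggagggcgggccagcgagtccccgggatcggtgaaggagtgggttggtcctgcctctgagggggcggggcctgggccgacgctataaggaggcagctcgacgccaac

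Most of the mitotic promoters held the cell cycle homology letters, the NF-Y box or both. Over 300 bases, from 250 before the start to 50 after it, 33 of the 40 genes had a RefSeq promoter. Ccna2, Aurkb, Mcm4, Ccnd1, Ccnd2, Ccne2 and Rb1 had none in the table. TTTGAA was in 10 of 14 mitotic promoters (71.4%), against 15.4% of 16530 protein-coding genes and 10.6% of the 8656 that reached 1 TPM in both animals. In 9 of the 10 a match lay within 40 bases of the start. Mki67, the gene of the Ki-67 proliferation antigen, was the exception, with matches at -116 and -98. Among the other 19 promoters only that of Mcm2 held it. The mitotic genes without it were Ccnb1, Birc5, Bub1 and Cenpe.

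NF-Y boxes were in 12 of 14 mitotic (85.7%) and 8 of 10 replication promoters (80%), against 38.7% of all. Top2a, which encodes the topoisomerase that untangles replicated chromosomes, held 6, of which the last 3 were 20 bases apart. In Ccnb2, a B-type cyclin gene, 3 stood 33 bases apart, and its TTTGAA matches, at -167 and 5, lie outside the stretch shown. Both motifs together were in 9 of 14 mitotic promoters (64.3%) and in 6.28% of all. E2F letters were in 4 of 10 replication promoters (40%), Mcm3, Mcm5, Mcm6 and Mcm7, against 2.95% of all. They were also in that of Cdk1, the kinase that drives mitosis, at -131, and in that of Cdk2. The matches of Mcm6 at -110 and -106 overlap on opposite strands. For 30 of the 33 genes the RefSeq start lay within 134 bases of the start of the coding transcript with the most reads. For Mcm7, E2f1 and Cdkn2c it lay 433 to 539 bases away. The transcript was chosen by the reads of the first quantification. For Cdkn1a this was Cdkn1a-201, while a second quantification of the same libraries put 79.9% and 89.9% of the reads on Cdkn1a-205. The start of Cdkn1a-205 was not examined. These are letter matches and not measured sites, and several of the genes are textbook targets of these regulators, so the shares are given with no test.

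**Figure D1:**
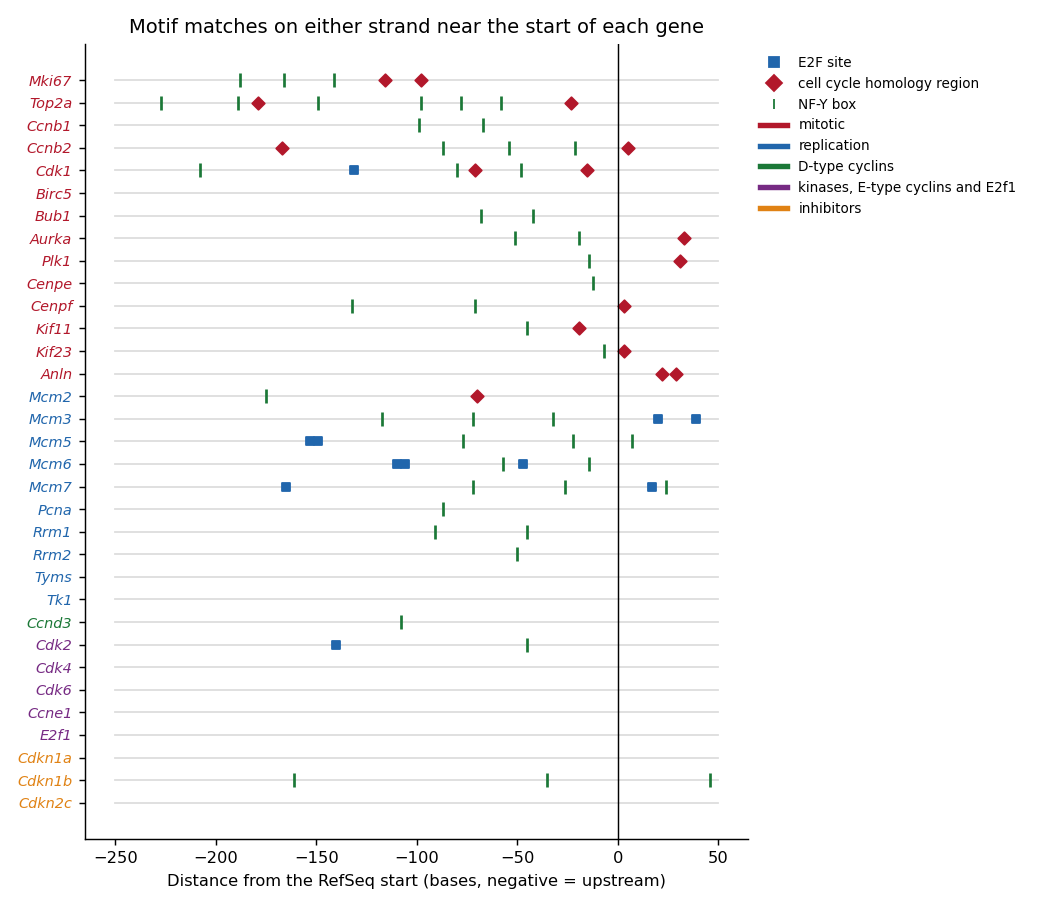
Motif matches in the 33 promoters, 1 gene a line coloured by role, against distance from the RefSeq start in bases. Diamonds mark the cell cycle homology region, vertical bars the NF-Y box and squares the E2F letters. Diamonds occur in 10 of 14 mitotic lines and in 1 of the 19 other lines, that of Mcm2.

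Among the 40 genes the D-type cyclins and inhibitors held much more RNA than the mitotic genes. Per length, the lowest D-type cyclin (Ccnd1, 13.49 TPM in animal 1) and the lowest inhibitor (Cdkn2c, 4.51 TPM) stood above the highest mitotic gene (Cenpf, 2.39 TPM in animal 2), so these listed groups did not overlap. Genes outside the 40 crossed this gap. The securin gene Pttg1 stood at 30.87 and 32.90 TPM, and the inhibitor gene Cdkn2b at 0.38 and 0.26 TPM. The median level of a D-type cyclin was 127 times that of a mitotic gene in animal 1 and 125 times in animal 2. For the inhibitors these ratios of medians were 44.3 and 41.0, and for the replication genes 8.41 and 8.54. In the second quantification, another estimate deposited for the same libraries, D-type over mitotic medians were 109 and 123. Replication genes ran from below the highest mitotic gene to above the lowest inhibitor, from 0.76 to 16.07 TPM.

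Of the 40 genes 21 reached 1 TPM in both animals, against 50% of 22015 protein-coding genes, and 18 stayed below it in both. Top2a stood at 0.63 and 1.01 TPM. The 18 were 14 mitotic genes, Rrm2, Tk1, Ccne1 and E2f1. All 40 together took 21169 reads in animal 1 and 24423 in animal 2, and the 5 genes with the most reads held 68.2% and 69.7% of them. Whether a low level comes from few cells with much of a transcript or many cells with little cannot be told apart in RNA of a whole tissue.

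**Figure D2:**
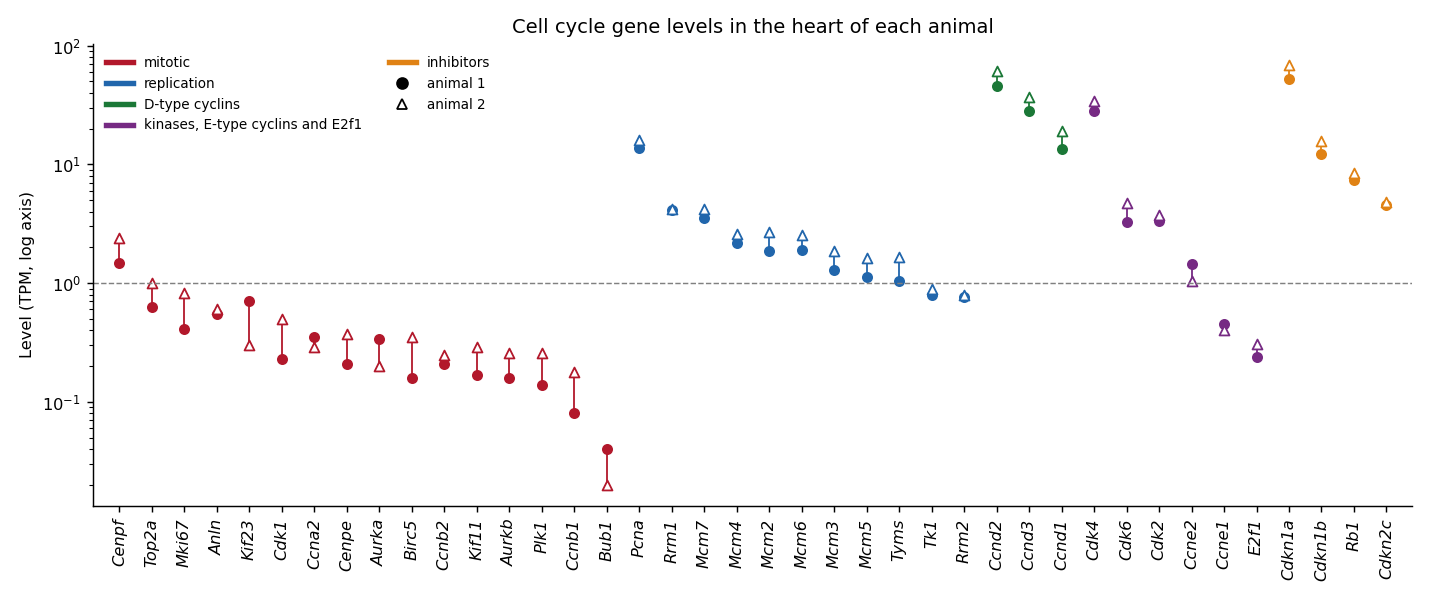
Level of each gene in TPM on a log axis, coloured by role and ordered by mean within a role, with circles for animal 1, triangles for animal 2 and a dashed line at 1 TPM. Mitotic genes lie at or below 2.39 TPM, while D-type cyclins lie between 13.49 and 60.95 TPM and inhibitors between 4.51 and 68.59 TPM.

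D-type cyclins, the growth-signal sensors of the cycle, summed to 86.85 TPM in animal 1 and 116.95 TPM in animal 2, a mean of 101.9 ± 21.3 TPM (SD, n = 2). Ccnd2 (ENSMUSG00000000184.12, chromosome 6, 127125162 to 127152193) led with 6435 and 7295 reads, or 45.47 and 60.95 TPM, above 95.3% of protein-coding genes. Ccnd3 (chromosome 17, 47505051 to 47599691) had 1807 and 2175 reads, or 27.89 and 36.83 TPM. Ccnd1 (chromosome 7, 144929931 to 144939925) was the lowest of the 3, with 1481 and 2054 reads, or 13.49 and 19.17 TPM. The order Ccnd2, Ccnd3, Ccnd1 was the same in both animals and in the second quantification. The TPM of Ccnd2 was 3.37 and 3.18 times that of Ccnd1 and 1.63 and 1.65 times that of Ccnd3 within an animal. Ccnd2 in animal 1 and Ccnd3 in animal 2 were closer, at 45.47 and 36.83 TPM. All 3 levels were higher in animal 2.

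Among the kinases the partner of the D-type cyclins, Cdk4, led. Cdk4 (chromosome 10, 127063534 to 127067920) stood at 27.94 and 34.22 TPM, with 736 and 796 reads. Cdk6, the other D-type partner (chromosome 5, 3341485 to 3531008), had more reads, 777 and 884, but over a longer transcript they gave 3.28 and 4.68 TPM. Cdk4 was thus 8.52 and 7.31 times Cdk6 per length over all transcript types. Coding transcripts held 33.1% and 30.3% of the TPM of Cdk4, against 98.2% and 99.4% for Cdk6, so on these alone the ratio is smaller. Cdk2, the partner of E-type and A-type cyclins, had 277 and 275 reads, or 3.35 and 3.76 TPM. The ranges of Cdk2 and Cdk6 overlapped.

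The E-type cyclins, which start S phase with Cdk2, were low. Ccne2 had 92 and 96 reads (1.45 and 1.05 TPM) and Ccne1 24 and 16 reads (0.45 and 0.40 TPM). E2f1, an activating E2F factor, had 24 and 27 reads, or 0.24 and 0.31 TPM. Ccnd2 stood 101 and 152 times above Ccne1 per length, and 86.3 and 79.8 times in the second quantification. The 6 genes of this group summed to 40.6 ± 5.45 TPM (SD, n = 2), of which Cdk4 was the largest part in both animals.

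The inhibitors were led by Cdkn1a (ENSMUSG00000023067.14, chromosome 17, 29090976 to 29100727), which encodes p21, the inhibitor induced by p53. It had 3447 and 4109 reads, or 51.98 and 68.59 TPM, the highest level of the 40 genes in each animal and above 95.9% of protein-coding genes. The next was Cdkn1b (chromosome 6, 134920401 to 134925513), the p27 gene, with 1259 and 1387 reads, or 12.14 and 15.77 TPM. Rb1, the retinoblastoma gene, which holds E2F factors (chromosome 14, 73183673 to 73325822), had 1066 and 1140 reads, or 7.33 and 8.44 TPM. Cdkn2c, the p18 inhibitor of Cdk4 and Cdk6, had 258 and 257 reads, or 4.51 and 4.85 TPM. The order was the same in both animals and their ranges did not overlap. Cdkn1a was 4.28 and 4.35 times Cdkn1b per length, and 1.14 and 1.13 times Ccnd2, a gap smaller than that between the animals in either gene. The 4 genes summed to 75.96 and 97.65 TPM, a mean of 86.8 ± 15.3 TPM (SD, n = 2).

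Replication genes summed to 32.27 and 39.11 TPM, 35.7 ± 4.84 TPM (SD, n = 2), much of it from Pcna. Pcna, the sliding clamp of DNA polymerase (chromosome 2, 132249162 to 132253314), had 715 and 745 reads, or 13.73 and 16.07 TPM. It stood 3.90 and 3.82 times above Mcm7, the highest helicase subunit gene, per length.

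The 6 genes of the MCM helicase, which unwinds DNA at the fork as a ring with 1 copy of each subunit, lay close together, from 1.12 to 3.52 TPM in animal 1 and from 1.62 to 4.21 TPM in animal 2. Mcm7 had 255 and 295 reads (3.52 and 4.21 TPM) and Mcm4 280 and 300 reads (2.16 and 2.58 TPM). Mcm2 had 200 and 205 reads (1.85 and 2.68 TPM) and Mcm6 182 and 241 reads (1.89 and 2.52 TPM). Mcm3 had 132 and 153 reads (1.28 and 1.87 TPM) and Mcm5 110 and 142 reads (1.12 and 1.62 TPM). Per length over all transcripts, Mcm7 was the highest and Mcm5 the lowest in both animals. The first place of Mcm7 rested on its shorter transcripts. Mcm7-201 alone gave 1.80 and 2.48 TPM, below Mcm4-201 at 2.16 and 2.58 TPM. In the second quantification they stood at 2.29 and 2.98 TPM and at 2.58 and 2.62 TPM, so the order differed between the animals. Mcm2, Mcm4 and Mcm6 could not be ordered, since their ranges overlapped, and those of Mcm3 and Mcm5 overlapped too.

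The enzymes of nucleotide supply divided by subunit. Rrm1, the large subunit of ribonucleotide reductase, had 499 and 509 reads, or 4.11 and 4.20 TPM. Rrm2, its S phase subunit, had 56 and 55 reads, or 0.76 and 0.79 TPM, so Rrm1 was 5.41 and 5.32 times as high per length. Tyms, which makes thymidylate, had 45 and 67 reads (1.05 and 1.67 TPM), and Tk1, the S phase thymidine kinase, 23 and 31 reads (0.80 and 0.90 TPM). The level of Tyms is uncertain: the second quantification gave it 177 and 173 reads. Mcm7, Pcna, Rrm1 and Tk1 were more than 1.5 times as high in TPM there, Pcna at 20.95 and 23.94 TPM.

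Mitotic genes summed to 5.86 and 8.10 TPM over 16 genes, 6.98 ± 1.58 TPM (SD, n = 2), with a median of 0.22 and 0.295 TPM. Cenpf, a kinetochore protein that also links to microtubules (ENSMUSG00000026605.14, chromosome 1, 189640606 to 189688086), was the only mitotic gene above 1 TPM in both animals, at 1.47 and 2.39 TPM. Kif23 was as well in the second quantification, at 1.61 and 1.23 TPM, beside Cenpf at 1.52 and 1.66 TPM. Coding transcripts gave 18.9% of that Kif23 TPM in each animal, against 95.7% and 98.9% for Cenpf. The 504 and 554 reads of Cenpf in the first quantification, on a transcript of 11130 bases, were 51.0% and 47.4% of all mitotic reads, and 25.1% and 29.5% of the mitotic TPM. The other 15 genes had 485 and 615 reads in all.

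Mki67 (chromosome 7, 135689784 to 135716361) had 150 and 203 reads, or 0.41 and 0.83 TPM, and Top2a (chromosome 11, 98992943 to 99024189) 69 and 99 reads. Anln, the cytokinetic ring protein anillin, had 68 and 76 reads (0.55 and 0.60 TPM). Cenpe, a kinetochore motor, had 48 and 58 reads (0.21 and 0.37 TPM). The spindle motor Kif11 had 29 and 44 reads (0.17 and 0.29 TPM), and Kif23, the motor of the central spindle, 25 and 29 reads (0.71 and 0.30 TPM).

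The kinases and cyclins that carry cells into mitosis rested on few reads. Ccna2, the A-type cyclin of S phase and G2, had 23 and 24 reads (0.35 and 0.29 TPM), and Aurka, the centrosomal Aurora kinase, 21 and 12 (0.34 and 0.20 TPM). Cdk1 (chromosome 10, 69335146 to 69352938) had 10 and 12 reads (0.23 and 0.50 TPM), and its partner cyclin Ccnb2 11 and 12 (0.21 and 0.25 TPM). Plk1, a kinase of mitotic entry and exit, had 11 and 11 reads (0.14 and 0.26 TPM). Aurkb and Birc5, both of the chromosomal passenger complex, had 7 and 13 reads (0.16 and 0.26 TPM) and 5 and 14 reads (0.16 and 0.35 TPM). Ccnb1, the main B-type cyclin, had 3 and 6 reads (0.08 and 0.18 TPM), and the checkpoint kinase Bub1 5 and 2 (0.04 and 0.02 TPM). These last 2 reached down to the limit that a count of 0 allows. Ccnb1 was the only gene of the 40 whose deposited posterior SD of the count exceeded 10% of its reads. That SD was 0 for many genes and does not cover differences between the quantifications. Birc5, with an SD of 0 in both animals, had 2.58 times the reads in the second quantification, and Ccnb1 1.11 times. In the second quantification Birc5, Aurka, Aurkb and Kif23 were more than 1.5 times as high in mean TPM. Cdkn1a stood 226 and 137 times above Cdk1 per length, and 215 and 241 times in the second quantification.

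None of the 37 genes that could be tested passed a 2-fold test between the animals. The test was an exact binomial test, two-sided, of the reads at the scaled library sizes. P-values were adjusted by Benjamini-Hochberg over 16133 genes with 20 reads or more, and a call needed an adjusted p under 0.05 and 2-fold. The comparison is of 2 libraries, without a replicate check. Of the 40 genes 37 had the 20 reads, and 0 of them passed, where 1.38% of all genes tested did (0.483% higher in animal 2 and 0.893% higher in animal 1). Ccnb1, Birc5 and Bub1 had fewer reads and were not tested. Their ratios of scaled reads were 1.90 (95% interval 0.405 to 11.7), 2.65 (0.904 to 9.42) and 0.379 (0.0361 to 2.32), too wide to place within or beyond 2-fold. For Birc5 both the ratio and the lack of a test depend on the estimate, since the second quantification gave it 23 and 26 reads. Unadjusted, 6 of the 37 had a p under 0.05 by the exact binomial test, against 21.9% of all. With DESeq2 size factors and in the second quantification, 0 passed as well.

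With no fold minimum 4 genes differed by more than counting error, against 11.3% of all genes tested. All 4 were higher in animal 2, the direction of 6.6% of all, with 4.75% in the other. They were the 3 D-type cyclins and Cdkn1a, the 4 genes with the most reads. Scaled reads of Ccnd1 in animal 2 were 1.31 times those in animal 1 (95% interval 1.23 to 1.41, adjusted p = 4.89e-14, exact binomial test). For Ccnd2 the ratio was 1.07 (1.04 to 1.11, adjusted p = 0.000487, exact binomial test). For Ccnd3 it was 1.14 (1.07 to 1.22, adjusted p = 0.000623, exact binomial test), and for Cdkn1a 1.13 (1.08 to 1.18, adjusted p = 3.49e-06, exact binomial test). The exons of Ccnd1 and Ccnd3 overlap protein-coding genes on the opposite strand, LTO1 and Bysl, and the sources used here do not give whether strand entered the counting. Overlap with a protein-coding gene was annotated for 9 of the 40 genes, also Ccna2, Ccne2, Cdk2, Cdk4, Mcm7, Rb1 and Tk1, and their reads are uncertain to that extent.

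Mki67, at 1.28 times (1.03 to 1.60), and Mcm6, at 1.26 times (1.03 to 1.53), missed the threshold (adjusted p = 0.133 for each, exact binomial test). With library sizes taken as total gene reads, they and Cdk6 also passed with no fold minimum, 7 genes in all. That scaling called 3371 genes in place of 1831 and raised the median log2 ratio of all genes from -0.0024 to 0.077. At 2-fold it split all calls into 114 higher in animal 2 and 126 higher in animal 1, in place of 78 and 144. Of the 37 genes 26 had a ratio above 1, against 49.3% of all genes tested, with a median log2 ratio of 0.09.

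**Figure D3:**
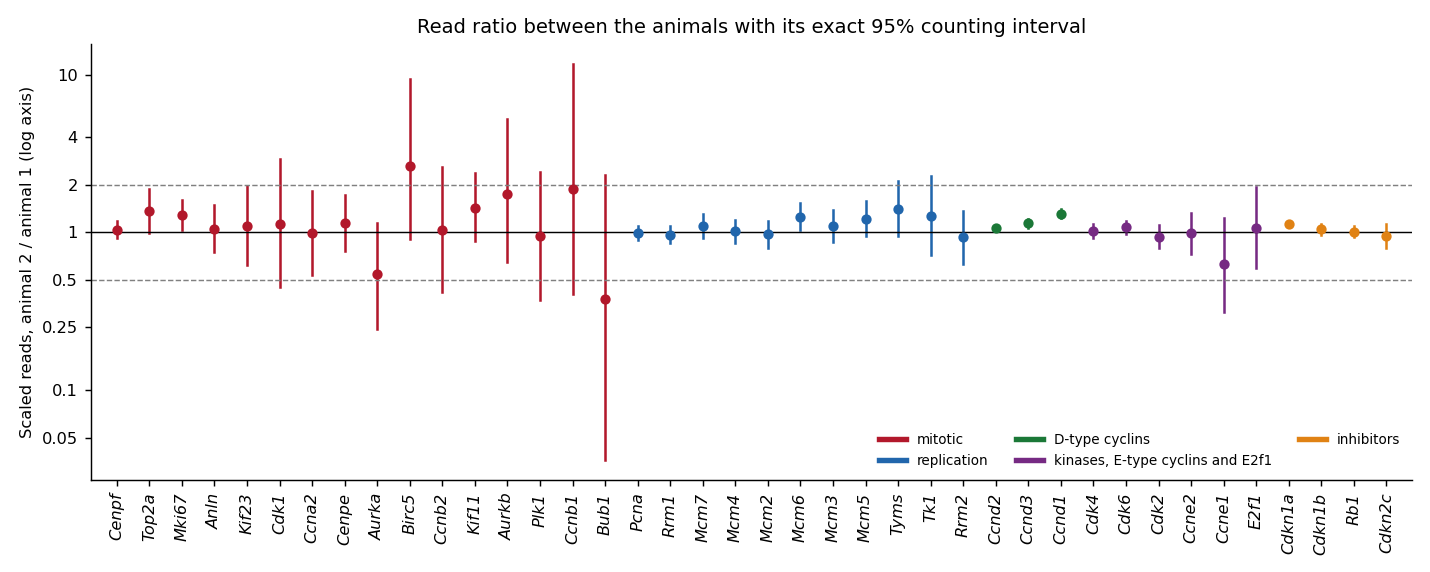
Ratio of scaled reads, animal 2 over animal 1, on a log axis, with exact 95% intervals of counting error for each gene, coloured by role. Intervals are narrow for D-type cyclins and Cdkn1a, which lie above 1, and for low mitotic genes reach from 0.036 (Bub1) to 11.7 (Ccnb1).

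Over whole groups the ratio of scaled reads was 1.12 for mitotic genes (95% interval 1.03 to 1.22), 1.04 for replication genes (0.986 to 1.10), 1.12 for D-type cyclins (1.09 to 1.15), 1.03 for the kinases, E-type cyclins and E2f1 (0.967 to 1.09) and 1.08 for inhibitors (1.05 to 1.12). Without Cenpf the mitotic ratio was 1.20 (1.07 to 1.36). Cdkn1a, at 1.13 (1.08 to 1.18), held the most reads of the inhibitors. The others were Cdkn1b at 1.04 (0.967 to 1.13), Rb1 at 1.01 (0.932 to 1.10) and Cdkn2c at 0.944 (0.792 to 1.13), with intervals that span 1. Several lists of markers of other cells than cardiomyocytes lay above 1. Endothelial markers had a ratio of 1.12 (1.10 to 1.14), fibroblast 1.18 (1.16 to 1.19), pericyte and smooth muscle 1.22 (1.20 to 1.24) and macrophage markers 1.22 (1.17 to 1.27), each over 6 genes, of which 5, 5, 6 and 6 were higher in animal 2. Their sums ran from 172.7 to 223.6, 245.9 to 328.3, 197.7 to 276.2 and 58.3 to 79.3 TPM. Cardiomyocyte markers had 0.971 (0.969 to 0.973), with 1 of 6 higher in animal 2. The erythroid precursor list, mostly Tfrc, had 1.29 (1.24 to 1.35), the T and B lymphocyte list 1.08 (0.853 to 1.37), the thymocyte list 1.11 (0.785 to 1.58) and the neutrophil precursor list 1.63 (0.590 to 4.87), the last 3 with intervals that span 1. Adipocyte markers had 2.20 (2.02 to 2.39), with Adipoq, Cidec and Cfd past the 2-fold test. The part of these cells in the ratios of the cell cycle genes was not tested.

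TPM and reads did not give the same picture of the animals. TPM was higher in animal 2 for 34 of the 40 genes, while the median log2 TPM ratio of all genes was itself 0.22. Beyond that shift 7 of the 37 genes with 20 reads were at least 1.5-fold apart in TPM, Mki67, Cdk1, Aurka, Plk1, Cenpe, Kif23 and Ccne2, where 10.5% of all genes with 20 reads were. For Mki67 the TPM ratio was 2.02 and the read ratio 1.28. In animal 2, 3.58 reads were placed on Mki67-202, a transcript of 575 bases, and gave 0.23 of its 0.83 TPM. None were placed there in animal 1. The mean effective length of the gene, the number of positions a read can start from, was 9962 bases in animal 1 and 7373 in animal 2.

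The same held for other low genes. In Cenpf, 2.23 and 7.79 reads on Cenpf-202, of 358 bases, gave 0.23 and 0.90 TPM, against 1.22 and 1.48 TPM from the 499.8 and 546.2 reads on the full Cenpf-204. In Mcm2, 4.92 reads in animal 2 on Mcm2-203, of 273 bases and annotated for nonsense-mediated decay, gave 0.85 of 2.68 TPM. In Kif23 the TPM ratio was 0.423, and 1.30 with 1 length per gene in both libraries. With 1 length per gene Ccna2 and Ccne2 also turned from below 1 to above 1, and 3 of the 37 genes were at least 1.5-fold apart beyond the shift in place of 7. With 1 length, a TPM ratio is the read ratio times a factor shared by all genes. It therefore restates the reads and is no separate check. The ratio of scaled reads was 0.989 for both Ccna2 and Ccne2. The setting with 1 length was added after the data were seen.

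Effective length differed at least 1.25-fold between the libraries in 12 of the 40 genes, or 11 of the 37 with 20 reads, against 6.56% of all genes. Among those with 20 to 499 reads it did in 10 of 22, against 16.3% of protein-coding genes in that range. Among those with 500 or more it did in 1 of 15, Cenpf, against 1.94%.

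**Figure D4:**
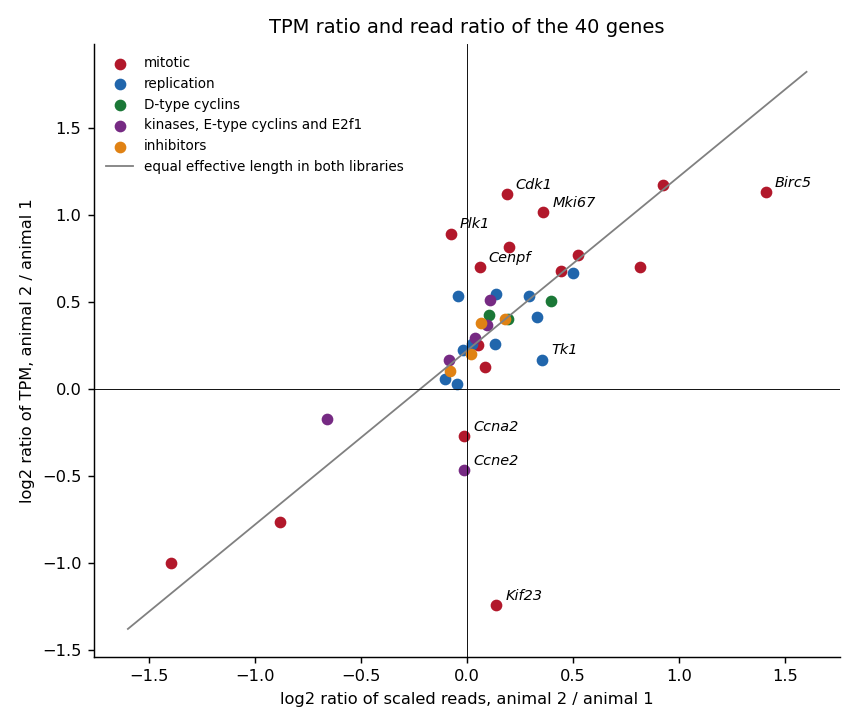
The log2 ratio of TPM against the log2 ratio of scaled reads, animal 2 over animal 1, for the 40 genes coloured by role, with a line where effective length was equal. D-type cyclins and inhibitors lie near the line, while Mki67, Cdk1, Plk1 and Cenpf lie above it and Kif23, Ccne2, Ccna2, Tk1 and Birc5 below it.

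Most reads fell on protein-coding transcripts. Of 24 genes with at least 50 reads in both libraries, 21 had at least 90% of reads on coding transcripts in both. The other 3 were Top2a (86.8% and 88.9%), Cdk2 and Cdk4. In the second quantification it was 18 of 24, with Anln, Pcna and Rrm1 also below. Genes with fewer reads varied widely. Tyms had 30.1% and 48.2% of reads on coding transcripts, Tk1 32.1% and 75.3%, Ccna2 46.5% and 93.6% and Ccnb1 0% and 43.3%. Others, such as Plk1 and Bub1, had 100% in both animals. In the second quantification Tyms had 78.0% and 75.1%, Tk1 19.3% and 62.6% and Ccnb1 0% in both.

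Among the 24 genes Cdk4 stood apart, with 48.2% and 45.7% of its reads on coding transcripts and 33.1% and 30.3% of its TPM. The retained-intron transcript Cdk4-209, of 468 bases, took 148.8 and 173.5 reads and gave 10.9 and 14.1 of the gene's 27.94 and 34.22 TPM. Cdk4-208, annotated for nonsense-mediated decay, took 138 and 174.2 reads. The second quantification put 57.5% and 54.6% of the reads on coding transcripts. Cdk4 shares 641 exonic bases with Tspan31 on the opposite strand, which had 883 and 832 reads, so the level of Cdk4 is uncertain.

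In Ccnd2 short transcripts weighed on the level. Ccnd2-201, of 6330 bases, took 6081 and 6860 reads and gave 26.3 and 33.0 TPM. Ccnd2-206, coding and of 627 bases, took 264 and 304 reads and gave 13.5 and 17.3 TPM. Ccnd2-207, of 415 bases and annotated as a processed transcript, took 61.6 and 109.6 reads and gave 5.26 and 10.4 TPM. The second quantification placed 0 reads on Ccnd2-207 in both animals. The transcript with the most reads of Ccnd3, Ccnd3-205, stood at 22.99 and 30.54 TPM and that of Ccnd1, Ccnd1-201, at 10.62 and 16.47 TPM. Their order turned in the second quantification, with Ccnd3-205 at 11.95 and 13.15 TPM and Ccnd1-201 at 13.29 and 18.05 TPM. In Cdk2 the split between the coding transcripts differed between the animals: Cdk2-201 took 123.9 and 218.8 reads, and Cdk2-202 117.6 and 36.8. In the second quantification Cdk2-201 took 97.2 and 180.3 reads and Cdk2-202 140.8 and 69.2, so Cdk2-201 was again higher and Cdk2-202 lower in animal 2, while in animal 1 the order of the transcripts turned. The split was not tested.

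**Figure D5:**
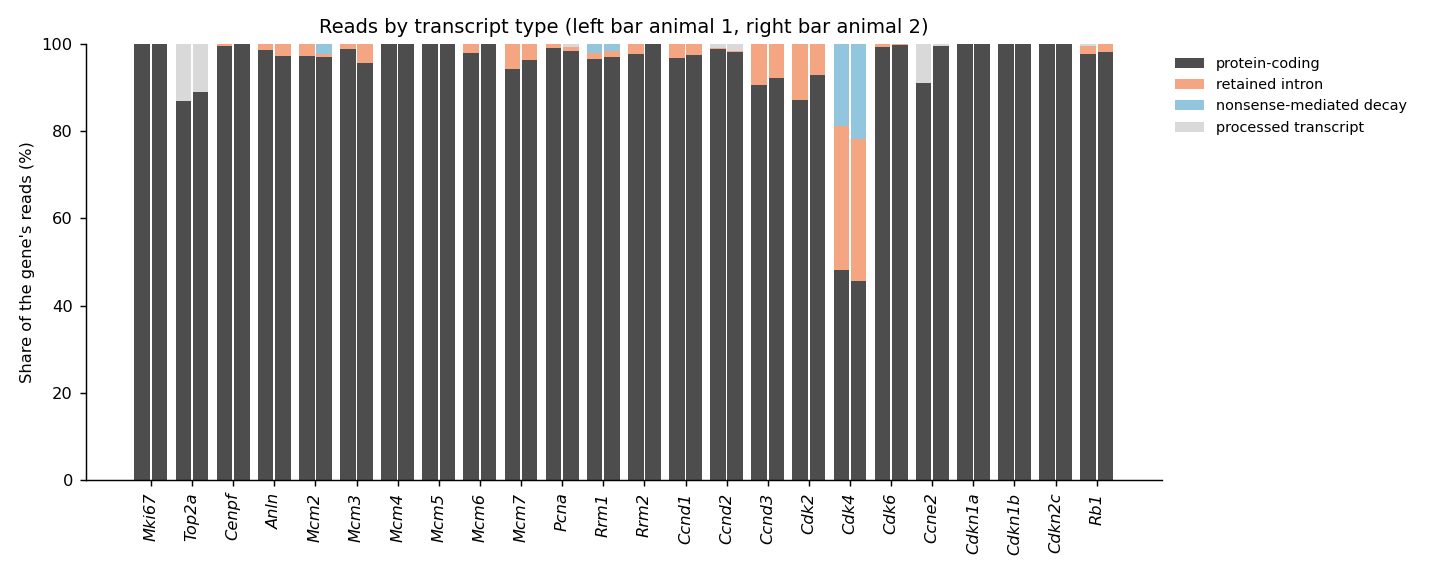
Share of each gene's reads in percent by annotated transcript type, for the 24 genes with at least 50 reads in both libraries, with the left bar for animal 1 and the right bar for animal 2. Coding transcripts fill at least 90% of both bars in 21 genes, and 48.2% and 45.7% in Cdk4.

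Lists of other genes of the same pathways held 93 genes in all, of which 80 had 20 reads, and 0 of the 80 passed the 2-fold test, against 1.38% of all genes tested. The pocket protein, E2F and DREAM list, the repressors of cell cycle genes in resting cells and their relatives, had 12 of 18 genes at 1 TPM or more in both animals. It summed to 146.5 and 161.2 TPM, and was led by the E2F partner gene Tfdp2 at 35.77 and 36.68 TPM and the repressor gene E2f6 at 29.51 and 34.77 TPM. Rbbp4, a histone-binding subunit, stood at 26.32 and 29.48 TPM and Tfdp1 at 13.81 and 15.44 TPM. Among the other inhibitors, 4 of 8 were at 1 TPM, with Cdkn1c, the p57 gene, at 11.12 and 14.91 TPM, Trp53, the p53 gene, at 5.42 and 6.72 TPM, Cdkn2d at 3.99 and 4.96 TPM and Wee1 at 3.10 and 3.67 TPM. The 12 other activators had 6 at 1 TPM, led by Ccnh, Cdk7 and Mnat1, which together form the kinase that activates other cyclin-dependent kinases and also acts in transcription.

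Origin and fork genes had 19 of 30 at 1 TPM. They were led by the single-strand binding gene Rpa1 at 21.81 and 24.12 TPM and Gmnn, the licensing inhibitor geminin, at 19.23 and 20.18 TPM. The spindle, checkpoint and cytokinesis list had 5 of 25 at 1 TPM. Its highest was the securin gene Pttg1 at 30.87 and 32.90 TPM, with 716 and 688 reads. Cenpa, the centromeric histone, stood at 17.97 and 19.32 TPM, Fzr1 at 10.97 and 13.15 TPM and Bub3 at 12.18 and 11.01 TPM. The median gene of this list was at 0.28 and 0.42 TPM, near the 0.22 and 0.295 TPM of the 16 mitotic genes, and the median coding gene with at least 20 reads at 6.10 TPM. In scaled reads the DREAM list and the origin and fork list had ratios of 0.962 (0.939 to 0.985) and 0.950 (0.922 to 0.979), and the other inhibitors 1.12 (1.04 to 1.19). The spindle list had 0.993 (0.949 to 1.04) and the other activators 1.02 (0.961 to 1.09). With total gene reads as library sizes the first 2 turned to 1.02 and 1.004, so their direction depends on the scaling.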

How the data were processed

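Gene and transcript tables of 2 heart libraries were used. The authors derived expected counts and TPM from transcriptome alignments (mm10, GENCODE M21), per the deposited readme, with columns named as RSEM names them, per the file headers. The second quantification, from a read file, gives estimated counts and TPM with the column names of kallisto, per the file headers. The sources used here do not give the aligner, versions, filters or use of strand. Reads of the CAST allele were placed on mm10, and any loss was not tested. Entries without a gene identifier (26248 of 81881) held 4 and 2 reads (9.5e-06% and 4.8e-06%) and were left out.

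TPM was described as deposited. Counts were rounded, scaled by TMM (edgeR 4.0.16, R 4.3.3) and compared by the exact binomial test (two-sided, scipy 1.17.1) with Benjamini-Hochberg adjustment over 16133 genes with at least 20 reads, at 0.05 and 2-fold, with a prior count of 0.5 in log2 ratios. This was tested on simulated data with counting error only, which cannot show how the test behaves with variation between animals. Nothing says whether the hearts were processed apart, so differences may be technical. Alternatives were DESeq2 1.42.0 size factors, total gene or spike-in reads, no count filter, no fold minimum, the second quantification, TPM over nuclear protein-coding genes, 0.5 TPM, each animal alone and 1 length per gene. The last restates the read ratios.

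All 40 genes are named. From 5 other cell cycle lists up to 4 genes by mean TPM were named. Cdkn2b, Ube2c and Cdc20 were named outside this rule. Members and lists were chosen with earlier results of these data known. Promoters are from RefSeq.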

Additional observations from a re-analysis of the deposited data

How the results depend on the processing

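With TPM computed over nuclear protein-coding genes alone the sums were 16.6 for mitotic genes, 85.4 for replication genes, 242.8 for D-type cyclins, 97.1 for the kinases, E-type cyclins and E2f1, and 207.2 for inhibitors. This scaling multiplies all genes of an animal by the same factor and leaves the order as it was. In the second quantification the replication sum was 51.1 TPM, above the 45.9 TPM of the kinase group and no longer below it. The other 4 sums moved by less than 1 SD, and the cause was not tested. Each animal alone gave 5.86 to 8.10, 32.27 to 39.11, 86.85 to 116.95, 36.71 to 44.42 and 75.96 to 97.65 TPM in the order above. Genes at 1 TPM or more were 21, with 25 at 0.5 TPM and 23 in the second quantification.

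No fold minimum gave 4 genes in place of 0. DESeq2 size factors, total gene reads, no count filter and the second quantification gave 0. With total gene reads as library sizes every ratio is multiplied by the same factor, and the group ratios were 1.18 for mitotic genes, 1.10 for replication genes, 1.19 for D-type cyclins, 1.09 for the kinase group and 1.15 for inhibitors. The share of reads on coding transcripts moved by more than 1 SD in the second quantification for 15 of 40 genes, and the TPM ratio by more than 0.1 (log2) with 1 length per gene for 20. The setting with 1 length restates the read ratios up to a shared factor and is no separate check. No paired analysis was possible because there is 1 group. For genes with few reads counting error is the limit: the interval of Cdk1 ran from 0.450 to 2.94.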

Other observations

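Some genes named for mitosis or replication were abundant in a tissue where the kinases of mitosis had few reads. Pttg1 and Cenpa, with 30.87 and 32.90 and with 17.97 and 19.32 TPM, were above all 16 mitotic genes and close to Ccnd3 or Ccnd1 per length. Gmnn, at 19.23 and 20.18 TPM, was above Pcna in both animals. Their ratios of scaled reads were 0.911 (95% interval 0.819 to 1.01), 0.899 (0.809 to 1.00) and 0.918 (0.817 to 1.03). Ube2c, the conjugating enzyme of the anaphase-promoting complex, had 28 and 55 reads, a ratio of 1.86 (1.16 to 3.05), with an adjusted p of 0.0646 by the exact binomial test. Cdc20, also of the spindle list, had 8 and 24 reads, a ratio of 2.84 (1.24 to 7.32, adjusted p = 0.0621, exact binomial test).

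The transcript that carried Cdkn1a depended on the estimate. Cdkn1a-201, of 1913 bases, took 3261 and 3876 reads in the first quantification and 578.6 and 286.7 in the second. Cdkn1a-205, of 2080 bases, took 103.5 and 163 reads in the first and 2768 and 3776 in the second. The TPM of the whole gene was 51.98 and 68.59 in the first and 59.5 and 70.2 in the second.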
